A study of Mus musculus with 4 samples.

Results

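The miR-30 family was followed through 2 small RNA libraries of basal cells and 2 of luminal cells from the mouse prostate. Members were all names with the stem miR-30a, miR-30b, miR-30c, miR-30d or miR-30e, with every arm and copy number, which gave 11 of the 816 mouse miRNA names listed in at least 1 library. The rule uses names alone. All 4 libraries came from wild-type C57Bl/6 males aged 10 weeks, and no group carried a treatment, transgene or mutation. The gland was digested with collagenase and trypsin, and Sca-1 positive, lineage negative cells were sorted. Basal cells were those with high CD49f (integrin alpha 6, which binds the basement membrane), and luminal cells those with low CD49f, so "luminal" means this gate. Nothing in the labels tells whether the libraries of a group came from different animals or pools, so each p-value reflects only the spread between these libraries, which could be technical.

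miRNAs are short RNAs cut from a hairpin precursor. Each hairpin can give a 5p and a 3p arm, and the arm that is loaded into Argonaute guides it to mRNAs that pair with the seed, bases 2 to 8 of the miRNA. The 5p arms of the miR-30 family share 1 seed and are the predominant products. The family is known from epithelia, where it has been linked to the epithelial state and to differentiation, and from kidney and heart. In human cells, miR-30a is known to repress the autophagy gene BECN1 and the epithelial-mesenchymal transition factor SNAI1.

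The seed is what makes these miRNAs 1 family, and the bases outside it are what a read must show to be given to 1 member. Mature sequences from RefSeq (GRCm38.p6) matched 7 of the 11 names. The 3 matched 5p arms are shown first, 5′ to 3′, with the seed in capitals.
miR-30a-5p: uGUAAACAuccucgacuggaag
miR-30e-5p: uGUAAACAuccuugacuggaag
miR-30c-5p: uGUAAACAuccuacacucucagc

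These 5p arms are identical over their first 12 bases. Counted from 1 at the 5′ end, with the miR-30a base first, the miR-30a and miR-30e 5p arms differ by C13U alone. The miR-30c 5p arm is the same whether it comes from Mir30c-1 or Mir30c-2, so its reads cannot be divided between these genes. The matched 3p arms, with their seeds in capitals, have 2 other seeds.
miR-30a-3p: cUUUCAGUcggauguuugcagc
miR-30e-3p: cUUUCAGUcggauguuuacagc
miR-30c-1-3p: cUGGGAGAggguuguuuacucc
miR-30c-2-3p: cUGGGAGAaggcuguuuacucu

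The miR-30a and miR-30e 3p arms differ by G18A alone, counted in the same way, and the miR-30c-1 and miR-30c-2 3p arms differ at 3 of 22 bases. No source used here tells how the authors assigned reads that match more than 1 name, so the split between miR-30a and miR-30e is less certain than their sum. miR-30b and miR-30d are the other members, each with a 5p and a 3p arm, and none of these arms was matched to a sequence.

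The members followed here are encoded by 6 genes in 3 pairs. On GRCm38, Mir30a (chr1:23272269-23272339, plus strand) overlaps no other gene of GENCODE M21, and Mir30c-2 (chr1:23291701-23291784, plus strand) overlaps an exon of Gm27028, a long noncoding RNA gene, 19361 bases further on. Mir30e (chr4:120772606-120772697, minus strand) and Mir30c-1 (chr4:120769534-120769622, minus strand) lie in an intron of Nfyc, which encodes a subunit of the transcription factor NF-Y. Mir30e also overlaps Mir30f, a miRNA gene on the opposite strand, which the stems followed here do not include. Mir30b and Mir30d are neighbours on chromosome 15. The Mir30a hairpin of 71 bases, with both mature arms in capitals, shows where the reads of its 5p and 3p names come from.
Mir30a hairpin: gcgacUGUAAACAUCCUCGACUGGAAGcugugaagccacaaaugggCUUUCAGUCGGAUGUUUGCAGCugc

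The libraries held from 1501898 to 3278294 miRNA reads. Reads named Cali and a 5′ adaptor, which are no mouse miRNA names, took 29.5% and 54.0% of listed reads in the basal libraries and 62.4% and 59.5% in the luminal libraries, and were kept out. miR-200c-3p alone took 22.3% and 46.9% of basal miRNA reads and 68.5% and 71.6% of luminal miRNA reads, which lowers the plain share of every other miRNA in luminal libraries. Levels are therefore reads scaled to 1000000 miRNA reads after TMM scaling (trimmed mean of M values), written RPM. The markers matched the gates: miR-205-5p, the basal marker, stood at 51956 and 80905 RPM in basal and 6686 and 4604.5 RPM in luminal libraries, and the luminal markers miR-148a-3p and miR-375-3p together at 3100.2 and 4142 against 26338 and 23201 RPM. Markers of other cells were present, although a lineage negative gate commonly serves to remove blood and endothelial cells; the labels do not name its antibodies. The endothelial miR-126a arms, both listed, summed to 55057 and 34556 RPM in basal and to 10579 and 966 RPM in luminal libraries, and the smooth muscle markers miR-143-3p and miR-145a-5p, both listed, to 1054 and 1969.6 against 9473 and 12374 RPM. All 4 leukocyte markers were listed, with sums of 3481 and 6461 RPM in basal and 2955 and 1909 RPM in luminal libraries. Most of that sum was miR-150-5p, at 3433 and 6289 against 2830.2 and 1179.98 RPM. The other leukocyte markers were low and went the other way by mean, miR-142-3p at 27.6 and 48.8 against 48.2 and 208 RPM, miR-142-5p at 13.4 and 59.5 against 47.4 and 189 RPM, and miR-223-3p at 7.10 and 63.4 against 29.1 and 332 RPM. The 3 fibroblast markers summed to 572 and 620.4 against 1170.03 and 1133 RPM. Of 3 erythroid markers, 2 were listed, at 170.3 and 3019 against 206 and 646 RPM in sum. No row carried the name miR-486-5p, so the level of this marker is not known, as its reads may stand under another name. Across all miRNAs, edgeR called 15 of 345 tested at an adjusted p under 0.05 (4.35%), and the groups did not overlap for 51.6%. The count of 15 was 61 without luminal replicate 1, 27 without luminal replicate 2, 9 without basal replicate 1 and 10 without basal replicate 2.

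The 5p arms of the miR-30 family were among the abundant miRNAs of both cell types, and no member passed the test between them. miR-30c-5p had the most reads of the family in all 4 libraries, and miR-30a-5p had the widest difference among the 5p arms, at a 2.04-fold higher level in basal cells. Of the 11 members, 10 passed the filter on low counts. None of these 10 was called by edgeR, where 4.35% of all tested miRNAs were, and none had an unadjusted p under 0.05, where 15.9% of all tested miRNAs did. DESeq2 called none of them either, and gave no adjusted p for 1 of the 10. The adjusted p-values of the 10 members ran from 0.388 to 0.995 (edgeR, Benjamini-Hochberg over 345 miRNAs). The design of 2 against 2 libraries allows no p below 0.333 in an exact permutation test of a single value. In sorted cells of this kind, fewer cells of a type and less RNA per cell cannot be told apart.

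**Figure D1:**
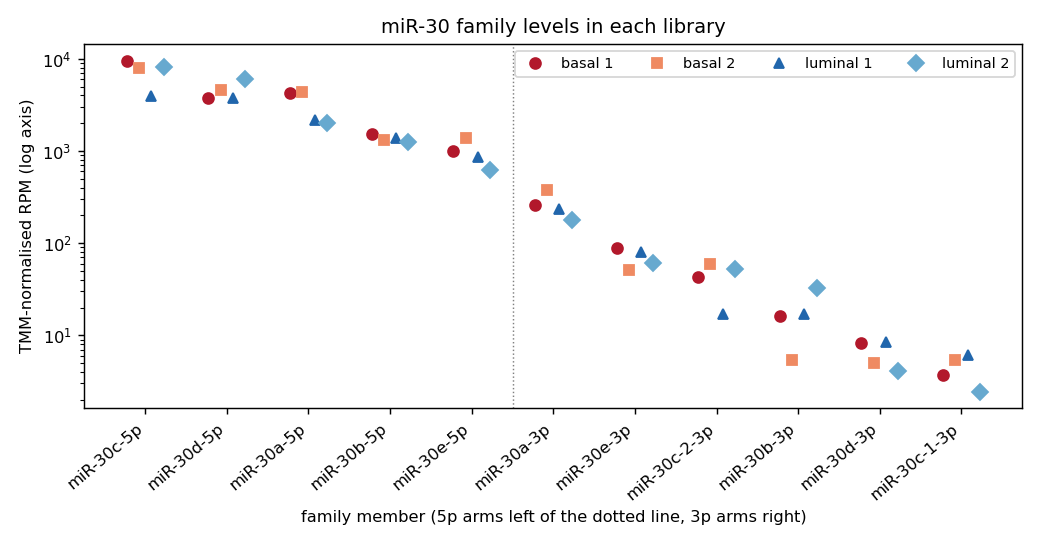
TMM-normalised RPM of each of the 11 family members in each library, on a log axis, with 1 point per library. The 5p arms lie from 624 to 9579.9 RPM and the 3p arms from 2.44 to 379 RPM, and basal and luminal points separate for miR-30a-5p, miR-30e-5p, miR-30a-3p and miR-30b-3p only.

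miR-30c-5p, known in rodent heart for repressing the fibrosis gene for connective tissue growth factor, had 9579.9 and 7877 RPM in basal libraries and 3969.7 and 8174 RPM in luminal libraries. It ranked 14 and 18 among the miRNAs of basal replicates 1 and 2, and 30 and 13 among those of luminal replicates 1 and 2. Luminal replicate 1 was the low library, and the groups overlapped. The log2 fold change, basal over luminal, was 0.52 (SE 0.63), with a 95% interval of -0.81 to 1.85 (adjusted p = 0.712, edgeR). It was 0.16 without luminal replicate 1 and 1.19 without luminal replicate 2.

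miR-30a-5p had 11274 and 14668 reads in basal libraries and 2858 and 2497 in luminal libraries. As levels these were 4211 and 4367 RPM in basal libraries and 2186 and 2029 RPM in luminal libraries. Both basal libraries lay above both luminal ones, and the libraries within a group lay close together, at 4289 ± 110.02 RPM in basal and 2107 ± 111 RPM in luminal cells (mean ± SD, n = 2 each). The log2 fold change was 1.03 ± 0.58 (SE), and its 95% interval of -0.20 to 2.25 included 0 (adjusted p = 0.388, edgeR). The spread used by the model is shared over miRNAs and is wider than that between these 4 values. The endothelial miR-126a sums also lay higher in basal libraries, and their part in this difference was not tested. Without 1 library at a time, the log2 fold change of miR-30a-5p ran from 1.01 to 1.14.

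miR-30e-5p, which differs from miR-30a-5p by 1 base, had 995 and 1378 RPM in basal libraries and 859.55 and 624 RPM in luminal libraries. The groups did not overlap, but basal replicate 1 and luminal replicate 1 lay close. Its log2 fold change was 0.68 ± 0.59 (SE), with a 95% interval of -0.56 to 1.91 (adjusted p = 0.594, edgeR). The reads of miR-30a-5p were 4.23 and 3.17 times those of miR-30e-5p in basal libraries and 2.54 and 3.25 times in luminal libraries, so this ratio overlapped between groups.

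miR-30d-5p, known in mouse pancreatic beta cells for raising insulin gene expression, had 3768 and 4533 RPM in basal libraries and 3751 and 6071 RPM in luminal libraries. The groups overlapped, with luminal replicate 2 the highest. Its log2 fold change of -0.24 ± 0.60 (SE), with a 95% interval of -1.50 to 1.02 (adjusted p = 0.885, edgeR), was the only value below 0 among the 5p arms. With upper-quartile factors, library totals alone and scaling to the Cali reads it was above 0, at 0.04, 0.32 and 1.69. Relative to the median of all tested miRNAs, miR-30d-5p stood at -0.24 in the TMM fit and at -0.27, -0.24 and -0.29 under these 3 scalings. On the same relative scale, miR-30a-5p stood at 1.03 in the TMM fit and at 1.01, 1.04 and 1.06. A change of scaling moves all miRNAs nearly alike, so it could change these relative values little. Without 1 library at a time, the relative value of miR-30d-5p ran from -0.97 (without luminal replicate 1) to 0.11 (without basal replicate 1). That of miR-30a-5p ran from 0.67 (without luminal replicate 1) to 1.29 (without basal replicate 1).

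miR-30b-5p, known with miR-30d for repressing the glycosyltransferase gene GALNT7 in human melanoma cells, had the steadiest level of the family. It had 1545 and 1325 RPM in basal libraries and 1377 and 1255 RPM in luminal libraries, with overlapping groups. The log2 fold change was 0.12 ± 0.57 (SE), and the 95% interval was -1.07 to 1.32 (adjusted p = 0.953, edgeR). The interval allows a difference of more than 1 on the log2 scale either way, so a like level in both cell types is not shown.

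**Figure D2:**
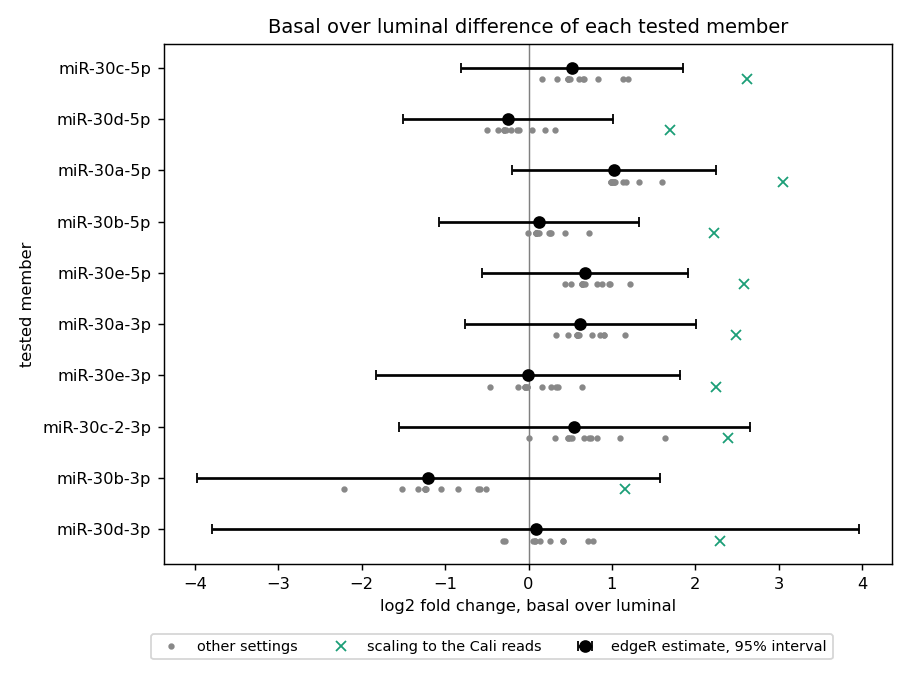
Log2 fold change, basal over luminal, of the 10 tested members (black points, 95% intervals from edgeR), with the same value under the other settings below each (grey dots) and under scaling to the Cali reads (green crosses). Every interval includes 0, from -3.98 to 1.57 for miR-30b-3p to -0.20 to 2.25 for miR-30a-5p, and the Cali scaling places every member above 0.

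By mean level, the order in basal cells was miR-30c-5p at 8728 ± 1204 RPM, miR-30a-5p at 4289 ± 110.02, miR-30d-5p at 4151 ± 540.5, miR-30b-5p at 1435 ± 155 and miR-30e-5p at 1186 ± 271 (mean ± SD, n = 2). The neighbours miR-30a-5p and miR-30d-5p did not differ beyond their spread there, nor did miR-30b-5p and miR-30e-5p. In luminal cells the order was miR-30c-5p at 6072 ± 2973 RPM, miR-30d-5p at 4911 ± 1640.2, miR-30a-5p at 2107 ± 111, miR-30b-5p at 1316.0 ± 86.6 and miR-30e-5p at 742 ± 166 (mean ± SD, n = 2). There the means of miR-30c-5p and miR-30d-5p did not differ beyond the spread between libraries. Within each luminal library miR-30c-5p was the larger, with 1.06 and 1.35 times the reads of miR-30d-5p. The matched mature arms are 22 or 23 bases long, so levels were set side by side with no correction for length. Capture of a miRNA in a small RNA library also depends on its end sequences, which these reads cannot show.

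The make-up of the family's 5p reads is a measure that no scaling between libraries can move. The shares of miR-30a and miR-30d did not overlap between the groups of 2 libraries, which is a description with no test, and levels did not overlap for 51.6% of all tested miRNAs. miR-30d-5p made up 18.7% (95% interval 18.4 to 19.1, exact Clopper-Pearson) and 23.3% (22.9 to 23.6) of the family's 5p reads in basal libraries, and 30.9% (30.2 to 31.6) and 33.4% (32.8 to 34.1) in luminal libraries. miR-30a-5p made up 21.0% (20.6 to 21.3) and 22.4% (22.1 to 22.7) in basal libraries, and 18.0% (17.4 to 18.6) and 11.2% (10.8 to 11.6) in luminal libraries. Luminal libraries thus lay above basal ones for the miR-30d share and below them for the miR-30a share. The miR-30a share also rests on how reads were divided between miR-30a and miR-30e, which is not known. These intervals, and those that follow, cover counting error only, since reads copied by PCR are not separate molecules.

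miR-30c-5p made up 47.7% and 40.4% of the 5p reads in basal libraries and 32.7% and 45.03% in luminal libraries, with overlap. miR-30b-5p made up 7.69% and 6.80% in basal and 11.3% and 6.91% in luminal libraries, and miR-30e-5p made up 4.95% and 7.07% in basal and 7.08% and 3.44% in luminal libraries. These shares overlapped between groups. The 5 shares sum to the whole in each library, so they are not independent of each other, and 2 of the 5 were without overlap, where 51.6% of all tested miRNAs had levels without overlap. Shares and levels are unlike measures, so these figures cannot be compared closely, and nothing particular to the family is shown.

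The ratio of miR-30a-5p to miR-30d-5p reads put both shares in 1 number. It was 1.12 and 0.963 in basal libraries and 0.583 and 0.334 in luminal libraries, or 1.04 ± 0.109 in basal and 0.458 ± 0.176 in luminal cells (mean ± SD, n = 2 each). The basal ratios were both above the luminal ones, by more than the spread within either group, although the design allows no p below 0.333 (exact permutation test, 2-sided). This order follows from the shares already given, so the ratio adds no separate evidence. The endothelial miR-126a sums also lay higher in basal libraries and the smooth muscle sums lower, and the part of these cells in the ratio was not tested.

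**Figure D3:**
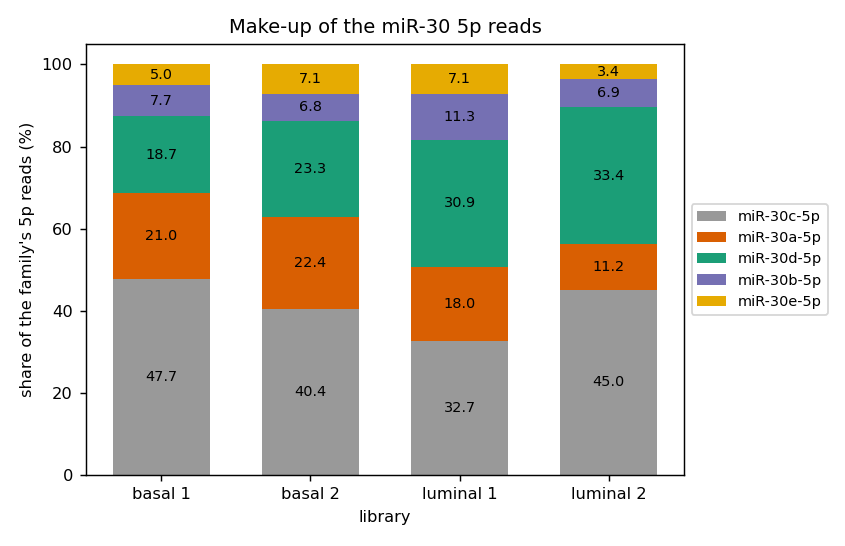
Stacked bars of the 5 miR-30 5p arms as percentages of the family's 5p reads, 1 bar per library. miR-30d-5p takes 18.7% and 23.3% in basal and 30.9% and 33.4% in luminal libraries, and miR-30a-5p takes 21.0% and 22.4% in basal and 18.0% and 11.2% in luminal libraries.

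Neighbouring genes were compared through the arms that only they give. miR-30c-5p, the most abundant member, comes from both Mir30c-1 and Mir30c-2 and is in none of the sums below. miR-30b-5p and miR-30d-5p come from neighbouring genes, yet miR-30d-5p had 2.44 and 3.42 times the reads of miR-30b-5p in basal libraries and 2.72 and 4.84 times in luminal libraries, with overlap. The arms of Mir30b and Mir30d summed to 5603 ± 375 RPM in basal and 6258 ± 1562 RPM in luminal cells. Those of Mir30a with miR-30c-2-3p summed to 4658 ± 208 RPM in basal and 2349 ± 128 RPM in luminal cells. Those of Mir30e with miR-30c-1-3p summed to 1261 ± 246 RPM in basal and 816 ± 182 RPM in luminal cells (mean ± SD, n = 2 each). These sums follow their leading 5p arm, and the pair with Mir30a was the one with the widest difference, 1.98 times higher in basal cells.

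The total of the family depended on what it was set against. The 5p arms summed to 53811 and 65433 reads in basal libraries and 15879 and 22337 reads in luminal libraries. This was 2.90% (95% interval 2.88 to 2.92, exact Clopper-Pearson) and 1.996% (1.98 to 2.01) of basal miRNA reads, against 1.003% (0.987 to 1.02) and 1.49% (1.47 to 1.51) of luminal miRNA reads. With miR-200c-3p left out of the total, the shares were 3.73% and 3.76% in basal libraries and 3.19% and 5.25% in luminal libraries. Over all miRNA reads both basal libraries lay above both luminal ones, while without miR-200c-3p the basal libraries lay between the luminal ones.

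On the TMM scale the 5p sum was 20099 and 19479 RPM in basal libraries and 12143 and 18152 RPM in luminal libraries. The basal mean of 19789 ± 438 RPM was 1.31 times the luminal mean of 15148 ± 4249 RPM (SD, n = 2 each). The groups did not overlap, but the gap between luminal replicate 2 and the basal libraries was smaller than that between the luminal libraries. When the 5p arms were summed to 1 row before the edgeR fit, the log2 fold change was 0.38 with a 95% interval of -1.01 to 1.78, given as a value with no test.

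**Figure D4:**
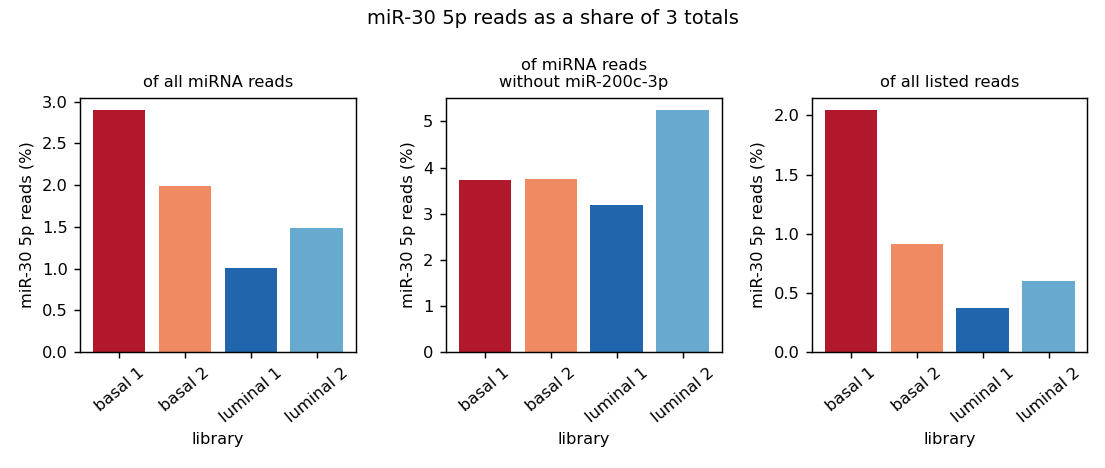
Reads of the summed miR-30 5p arms as a percentage of all miRNA reads (left), of miRNA reads without miR-200c-3p (middle) and of all listed reads, Cali reads included (right), 1 bar per library. Basal bars are higher at the left (2.90% and 1.996% against 1.003% and 1.49%) and at the right, and lie between the luminal bars in the middle (3.73% and 3.76% against 3.19% and 5.25%).

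The 3p arms, known mostly as the lesser products of these hairpins, took 2.03% and 2.53% of the family's reads in basal libraries and 2.92% and 1.78% in luminal libraries. Most of these reads were miR-30a-3p, with 687 and 1274 reads in basal and 310 and 217 reads in luminal libraries. Its level was 257 and 379 RPM in basal libraries and 237 and 176 RPM in luminal libraries. The groups did not overlap, and the log2 fold change was 0.62 ± 0.66 (SE; 95% interval -0.77 to 2.01, adjusted p = 0.694, edgeR). Without basal replicate 2 it was 0.33, and without the other libraries in turn it ran from 0.47 to 0.901.

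The share of reads on the 3p arm was larger for miR-30a and miR-30e than for miR-30b and miR-30d in every library, while the order of miR-30a and miR-30e varied. For miR-30a it was 5.74% and 7.99% in basal and 9.79% and 7.996% in luminal libraries, where basal replicate 2 and luminal replicate 2 agree within counting error. For miR-30e it was 8.17% and 3.603% in basal and 8.47% and 8.90% in luminal libraries, with basal replicate 2 apart from the other libraries. For miR-30b it was 1.03% and 0.403% in basal and 1.21% and 2.53% in luminal libraries, and for miR-30d 0.218% and 0.112% in basal and 0.224% and 0.0669% in luminal libraries. The shares of miR-30a, miR-30e and miR-30b did not overlap between groups and were higher in luminal libraries, while those of miR-30d overlapped. Levels did not overlap for 51.6% of all tested miRNAs, and no such count was made for arm shares. For miR-30b, the intervals of basal replicate 1 (0.746 to 1.38) and luminal replicate 1 (0.758 to 1.82) overlapped. In each library the share of miR-30b exceeded that of miR-30d.

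**Figure D5:**
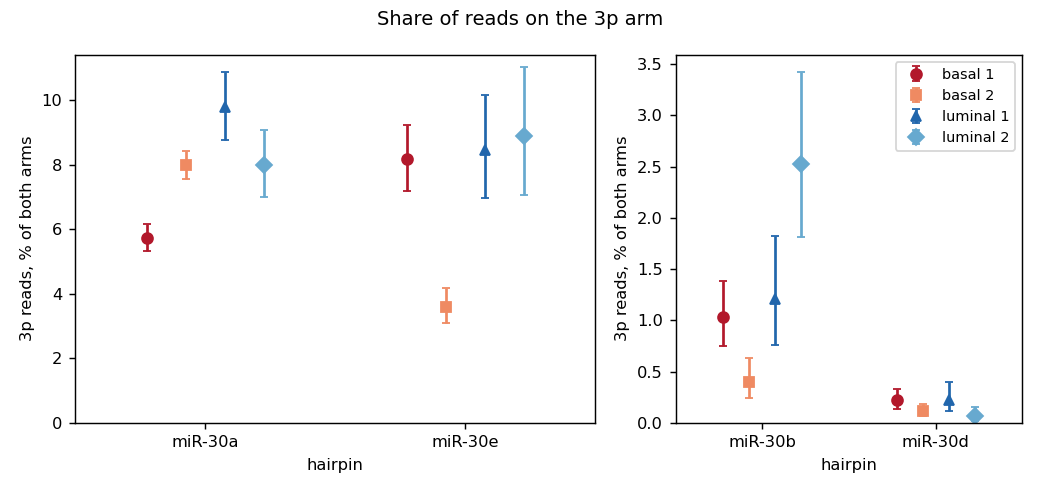
Reads on the 3p arm as a percentage of both arms of a hairpin, 1 point per library with exact 95% binomial intervals. Points for miR-30a and miR-30e lie from 3.603% to 9.79% (left panel) and those for miR-30b and miR-30d from 0.0669% to 2.53% (right panel, with its own axis).

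The 2 genes of miR-30c can be told apart by their 3p arms. miR-30c-2-3p had 115 and 198 reads in basal libraries and 22 and 65 reads in luminal libraries. miR-30c-1-3p had 10 and 18 reads in basal libraries and 8 and 3 reads in luminal libraries, and it was the member that did not pass the filter on low counts. The Mir30c-2 arm thus took 92.0% (95% interval 85.8 to 96.1, exact Clopper-Pearson) and 91.7% (87.1 to 94.99) of miR-30c 3p reads in basal libraries, and 73.3% (54.1 to 87.7) and 95.6% (87.6 to 99.1) in luminal libraries. It was the larger in every library, and the low luminal value rests on 30 reads. The log2 fold change of miR-30c-2-3p was 0.55 ± 0.998 (SE; adjusted p = 0.836, edgeR), and 1.64 without luminal replicate 2 and 0.00098 without luminal replicate 1.

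The other 3p arms had few reads. miR-30e-3p had 88.5 and 51.5 RPM in basal libraries and 79.5 and 60.9 RPM in luminal libraries, with overlap and a log2 fold change of -0.01 ± 0.87 (SE), which was above 0 with upper-quartile factors, library totals alone and the Cali scaling. miR-30b-3p had 43 and 18 reads in basal and 22 and 40 reads in luminal libraries, or 16.1 and 5.36 RPM against 16.8 and 32.5 RPM. The groups did not overlap, but basal replicate 1 and luminal replicate 1 were nearly level, and the log2 fold change was -1.20 ± 1.32 (SE; 95% interval -3.98 to 1.57, adjusted p = 0.700, edgeR) and lay at 1.16 with the Cali scaling, which moved all miRNAs up. Relative to the median of all tested miRNAs, miR-30b-3p was below 0 in both, at -1.20 in the TMM fit and -0.83 with the Cali scaling. Without 1 library at a time its log2 fold change ran from -2.22 (without basal replicate 1) to -0.59 (without luminal replicate 2), and it was -0.60 without basal replicate 2. miR-30d-3p had 22 and 17 reads in basal and 11 and 5 reads in luminal libraries, and at this depth its log2 fold change was left anywhere from -3.80 to 3.97 (95% interval).

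Of the 10 tested members, 7 had a log2 fold change above 0 and 3 below, with a median of 0.32, beside 172 above and 173 below and a median of -0.01 over all 345. With upper-quartile factors, library totals alone and the Cali scaling, 9, 9 and 10 members were above 0, while the median of all miRNAs moved up by 0.32, 0.57 and 1.99. The 5p arms had a median of 0.52 and the 3p arms of 0.09. Basal and luminal levels did not overlap for 4 of the 10 members, where 51.6% of all tested miRNAs did not. Of the 10 members, 3 were without overlap and higher in basal cells, beside 27.2% of all tested miRNAs. Another 1 of the 10 was without overlap and higher in luminal cells, beside 24.3% of all tested miRNAs. Among other abundant seed families, let-7 with miR-98 had no call among 15 tested members (none at an unadjusted p under 0.05, median 0.65), miR-26 none among 4 (none at an unadjusted p under 0.05, median 0.76), and miR-29 none among 7 (2 at an unadjusted p under 0.05, median -0.10), all by edgeR. DESeq2 called no member of these 3 families, and gave no adjusted p for 1, 1 and 2 of their members.

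Among 131 other miRNAs with a mean of at least 100 RPM, those whose profile over the 4 libraries lay nearest to the miR-30 5p sum were miR-324-3p, let-7d-3p and miR-182-5p. Likeness was the root mean square difference of log2 RPM, each centred on its own mean over 4 libraries, and was 0.08, 0.12 and 0.15. miR-324-3p had 129 and 111 RPM in basal libraries and 74.9 and 120.3 RPM in luminal libraries. It shared with the 5p sum a low luminal replicate 1 and a luminal replicate 2 near the basal libraries. Nearness over 4 libraries is a description and can come from what the libraries share, such as depth and scaling.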

How the data were processed

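Small RNA libraries of sorted cells, 2 basal and 2 luminal, were compared. The authors deposited read counts per miRNA name, per the file headers, as 1 list per library and without normalization. The file's name points to BLAST. Its settings, the adaptor trimming and the miRNA release were given in none of the sources used. A name not listed in a library was set to 0 reads, and the unnamed total that ends each list was left out. Cali and adaptor names stayed out of totals and tests.

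All 345 miRNAs that passed filterByExpr (minimum 10 reads, total 15 reads) were fitted together in edgeR 4.0.16 under R 4.3.3 (TMM, quasi-likelihood, cell type as only term, 2-sided), with Benjamini-Hochberg adjustment and a threshold of 0.05. A standard error is the log2 fold change over the root of its F statistic. Shares have 95% exact binomial intervals. The fit was tested on simulated data, and DESeq2 1.42.0 was an alternative. Every member is named, with the marker miRNAs and the 3 nearest profiles. The leukocyte markers miR-142a-3p and miR-142a-5p were matched to the file's older names miR-142-3p and miR-142-5p, and the erythroid marker miR-486a-5p, looked for as miR-486-5p, was not found. Members and lists were chosen with earlier results of these data known.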

Additional observations from a re-analysis of the deposited data

How the results depend on the processing

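No miR-30 member was called under any of the 13 other settings. miR-30a-5p, miR-30c-5p, miR-30e-5p, miR-30a-3p and miR-30c-2-3p stayed above 0 in all 13. The count of 15 calls over all miRNAs (2 higher in basal, 13 in luminal cells) was 2 with library totals alone (1 and 1), 3 with scaling to the Cali reads (3 and 0), 5 at a minimum mean of 10 RPM, 33 in DESeq2, and from 9 to 61 without 1 library. The replicate numbers were not shown to pair libraries (correlation of same-numbered deviations 0.15, 2 pairs), and a replicate block gave 23 calls, none in the family. Members without overlap numbered 9 with the Cali scaling and from 6 to 8 without 1 library, against 4. Over all tested miRNAs the groups did not overlap for 62.0% with the Cali scaling and for 68.9% to 80.5% without 1 library, against 51.6%. The 5p share was 3.75% in basal and 4.22% in luminal cells without miR-200c-3p, 1.48% and 0.49% of all listed reads, and from 1.996% to 2.90% and from 1.003% to 1.49% without 1 library.

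Some directions turned. With upper-quartile factors, library totals alone and the Cali scaling, miR-30d-5p was at 0.042, 0.32 and 1.69 and miR-30e-3p at 0.33, 0.64 and 2.25. miR-30e-3p was at 0.16 with no filter, and miR-30b-3p at 1.16 with the Cali scaling, which moved the median of all miRNAs up by 1.99. Without 1 library, miR-30d-5p ran from -0.49 to 0.19, miR-30e-3p from -0.46 to 0.35, miR-30b-5p from -0.0070 to 0.26 and miR-30d-3p from -0.31 to 0.77, while miR-30b-3p (-2.22 to -0.59) and miR-30a-3p (0.33 to 0.901) kept their sign. With upper-quartile, total and Cali scaling the family's median relative to that of all miRNAs was 0.32, 0.35 and 0.36, against 0.33 in the TMM fit. It was 0.096 with miR-200c-3p left out, 0.19 with no filter, 0.10 without luminal replicate 2, -0.20 without luminal replicate 1, and at most 0.56 (without basal replicate 2). The cause was not tested. Depth limits the 3p arms of miR-30b, miR-30d and miR-30c-1 most, which had at most 43 reads in a library.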

Other observations

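Among the other mature miRNAs in the RefSeq sequences used here, miR-384-5p has the same seed as the miR-30 5p arms. It had 2 and 8 reads in basal libraries and 34 reads in luminal replicate 1, and was not listed in luminal replicate 2. It therefore added almost nothing to the reads with this seed.

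The ratio of miR-30a-3p to miR-30e-3p reads, arms that differ by 1 base, was 2.90 and 7.36 in the basal libraries, against 2.98 and 2.89 in the luminal libraries. Basal replicate 2 stood apart, while the ratio of the 5p arms of these genes in that library, 3.17, lay among those of the other libraries.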
